A study of Homo sapiens with 6 samples.

Results

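The response of MDA-MB-231 cells to decitabine (5-aza-2'-deoxycytidine, DAC) was described in both directions, for genes that were lower as well as for those that were higher. MDA-MB-231 is a human breast cancer line of mesenchymal type that lacks the hormone receptors. A single library of untreated cells was compared with 1 library of cells collected 72 h after the start of treatment with 10 µM DAC, renewed daily. Both libraries were made from polyadenylated RNA of pooled independent extractions, and neither condition has a second library. A label gives the line of the untreated library as MDA-MB-232, whereas its title gives MDA_MB_231. For each of the 23617 gene symbols of the table, the transcript with the largest summed FPKM (fragments per kilobase of transcript, scaled to the mapped fragments of the library) was kept. A gene entered when this transcript was 200 bases or longer and reached 1 FPKM in at least 1 of the libraries, which 12031 genes did. The other 4 of the 6 libraries of the study come from HMLER, a line of transformed human mammary cells, and are used here only for a comparison at the end.

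DNA methyltransferases copy methyl groups onto the new strand at CpG sites when a cell divides. Decitabine is a cytidine analog that is built into DNA, traps these enzymes and so lets methylation fade over successive divisions. Genes whose CpG-rich promoters are methylated in ordinary cells, such as germ line genes, are the known targets of this loss. The drug also damages DNA and stalls dividing cells.

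The table gives each FPKM with a lower and an upper bound, which describe the estimate within 1 library and not the spread between cultures. A gene was called with its bounds apart when the lower bound in one library lay above the upper bound in the other. A second rule of size asked for a ratio of the FPKM values above 2 or under 0.5. With 1 library per condition no test was possible, and no difference has a replicate check. Fewer cells that express a gene and less RNA per cell cannot be told apart in bulk RNA. Reads were not listed, but FPKM values of low transcripts lay on whole multiples of a smallest step. All 767 such values of the untreated library and all 811 of the DAC library were within 0.03 of a whole read, and the step corresponded to about 42600000 and 42300000 fragments. The libraries were therefore of like depth. Most markers of the line were high in the untreated library, with 3066 FPKM of VIM, 353 of MSN, 244 of AXL and 159 of CD44. EGFR was at 34.6 FPKM there, and SPARC at only 2.09. Luminal epithelial markers were mixed in that library. ESR1, PGR and CDH1 were listed at 0, GATA3 was at 0.084 and KRT19 at 0.518 FPKM. KRT18, KRT8 and ERBB2 were at 171, 72.4 and 10.05 FPKM. PTPRC, CD3E, LYZ, PECAM1, VWF and ALB, markers of blood, endothelium and liver, did not exceed 0.156 FPKM in either library.

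**Figure D1:**
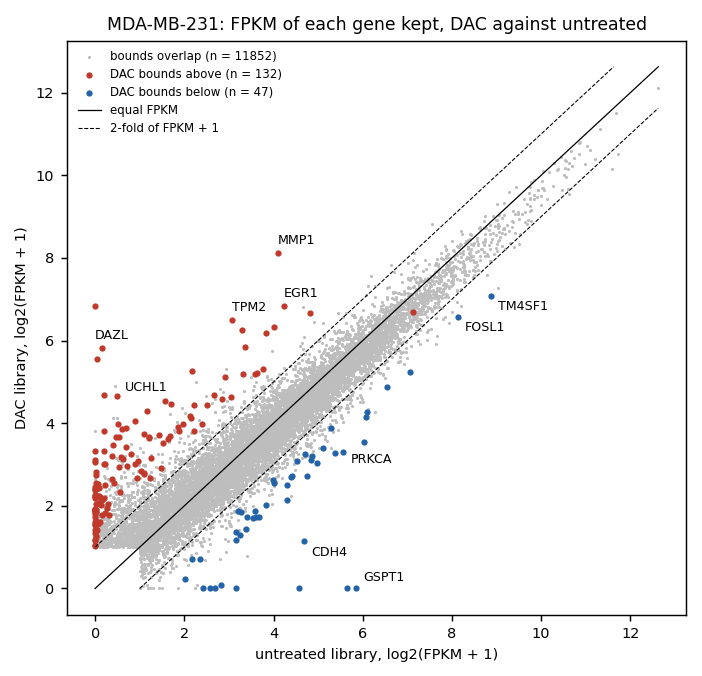
Each point is 1 of the 12031 genes, with its level in the untreated library on the x axis and in the DAC library on the y axis, both as log2(FPKM + 1). Red points are the 132 genes whose DAC bounds lay above the untreated bounds and blue points the 47 whose DAC bounds lay below. Most red points sit at the left edge, whereas the blue points are spread along the range of untreated levels from 3.06 to 467 FPKM.

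Bounds were apart for 132 genes with the higher level after DAC (1.1% of the 12031) and for 47 with the lower level (0.391%). By the 2-fold rule 1324 genes were higher (11%) and 619 lower (5.15%). The groups differed in where they started. Of the 132 genes higher with bounds apart, 89 were under 1 FPKM in untreated cells and 10 were listed at 0, whereas the 47 lower genes started between 3.06 and 467 FPKM. The filter has a part in this, because a gene under 1 FPKM in untreated cells was kept only if it reached 1 FPKM after DAC. Among the 854 genes above 100 FPKM, 1 was more than 2-fold higher and 44 were more than 2-fold lower, with a median log2 change of -0.33, computed after adding 1 FPKM to both values. The median log2 change of all genes on that scale was -0.09, and 0.037 after division of the DAC values by the median ratio given next. The median ratio of the 10814 genes at 1 FPKM or more in both libraries was 0.909 (log2 -0.14), and changes are given as listed, without removing it. For 3 of the 132 genes, calls rested on estimates that the table marks as failed or too deep. They were RNA45S5, the ribosomal RNA precursor, which was listed at 0 in untreated cells and at 113 FPKM after DAC, and ZNF587 and SLC43A3, whose untreated bounds were both 0. SLC43A3 was in fact lower after DAC, at 102 against 139.9 FPKM. Without these, 129 genes were higher.

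**Figure D2:**
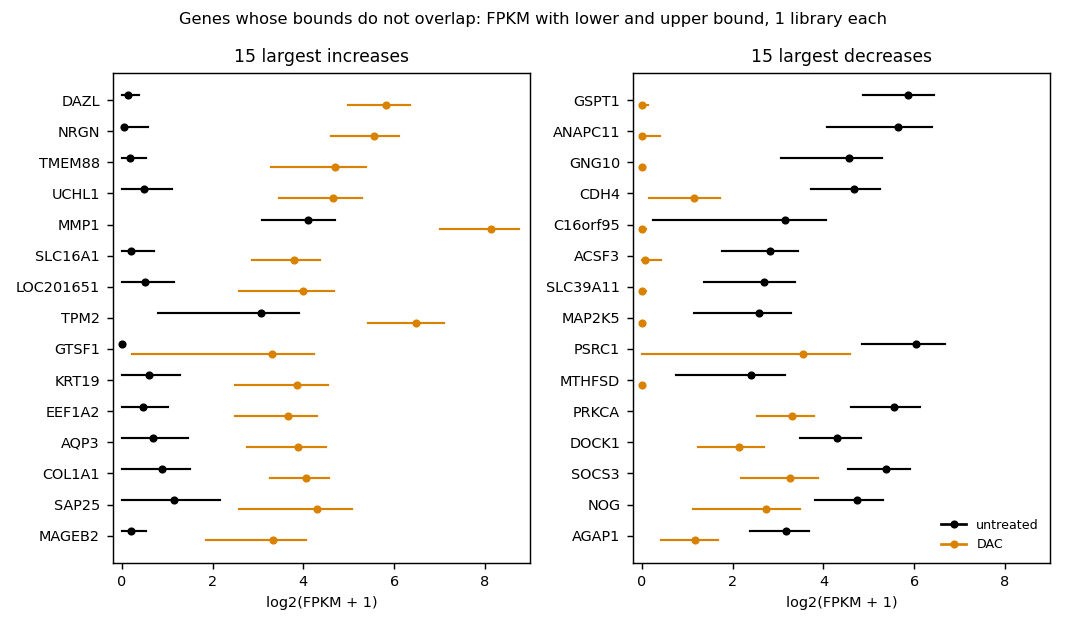
Dots give log2(FPKM + 1) and lines the lower to upper bound, in black for the untreated and in orange for the DAC library, for the 15 largest increases (left) and the 15 largest decreases (right) among genes with bounds apart and an accepted status. On the left MMP1 (16.2 FPKM) and TPM2 (7.38 FPKM) started well above 0 and DAZL rose to 55.6 FPKM. On the right GSPT1, ANAPC11 and GNG10 ended at 0.00118, 0.00435 and 0 FPKM, and PRKCA and SOCS3 at 8.89 and 8.66 FPKM.

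Germ cell genes had the highest median of the gene lists examined. Of 57 listed germ cell and meiosis symbols, 16 were kept, of which 15 were more than 2-fold higher, 6 had bounds apart and none was lower, with a median log2 change of 1.73. The filter fixed most of this direction, since 14 of the 16 were under 1 FPKM in untreated cells and were kept through their DAC level. DAZL, an RNA-binding protein that germ cells need for their development, was at 0.107 (bounds 0 to 0.308) FPKM in untreated cells and at 55.6 (bounds 30.6 to 80.6) FPKM after DAC. GTSF1, a partner of the piRNA machinery, was listed at 0 and then at 8.97 (bounds 0.165 to 17.8) FPKM. TDRD6, a tudor protein of germ granules, reached 1.04 (bounds 0.205 to 1.88) FPKM from a summed level of 0.0216 over its transcripts. HENMT1, which methylates piRNA ends and is not in the list, went from a sum of 0.0314 to 11.9 FPKM. These genes started near 0, whereas NANOS1, a translational repressor of germ cells, was already at 4.23 (bounds 1.6 to 6.86) FPKM and reached 14.7 (bounds 7.87 to 21.5) FPKM. Of 126 symbols of cancer-testis antigens, genes active in testis and in some tumours, 14 were kept, and 8 of these were more than 2-fold higher and 1 lower. Their median was 1.07, and 0.36 at 5 FPKM in at least 1 library. Here 7 of the 8 higher genes started under 1 FPKM. MAGEB2 was at 0.15 (bounds 0 to 0.445) FPKM untreated and at 9.09 (bounds 2.63 to 15.5) FPKM after DAC, and MAGEC1 reached 1.43 (bounds 0.0647 to 2.79) FPKM. XAGE1A was the exception, at 5.53 FPKM in untreated cells and listed at 0 after DAC with overlapping bounds. MAGE and XAGE transcripts have close copies, so the share of reads between copies is uncertain.

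The promoter of DAZL is shown because it is CpG-rich, and that of GTSF1 because it is not. Each run is the 250 bases before the 5′ end of the annotated main transcript, on hg19 and read on the strand of the gene, with every CpG in capitals. The windows lie at chr3:16646931-16647180 (minus strand) and chr12:54867387-54867636 (minus strand).
DAZL: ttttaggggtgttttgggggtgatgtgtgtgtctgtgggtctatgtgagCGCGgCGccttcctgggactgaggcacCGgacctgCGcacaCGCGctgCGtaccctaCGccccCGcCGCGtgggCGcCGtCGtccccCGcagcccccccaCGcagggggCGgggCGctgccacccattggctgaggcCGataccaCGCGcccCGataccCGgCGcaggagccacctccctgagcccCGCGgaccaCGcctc
GTSF1: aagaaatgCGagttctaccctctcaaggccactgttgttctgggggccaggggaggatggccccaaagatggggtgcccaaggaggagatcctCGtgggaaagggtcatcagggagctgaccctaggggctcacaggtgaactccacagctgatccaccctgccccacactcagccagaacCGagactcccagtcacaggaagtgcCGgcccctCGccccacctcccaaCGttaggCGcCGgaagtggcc
The DAZL window holds 28 CpG and the GTSF1 window 8.

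Epithelial genes were among the higher genes, in a line of mesenchymal type. Of 9 keratins measured, the filaments of epithelial cells, 4 were more than 2-fold higher (44.4%, against 11% of all genes) and none was lower. The filter has a part in this, since 3 of the 4 started under 1 FPKM and were kept through their DAC level. Among the 6 at 1 FPKM or more untreated, 1 was higher. The median log2 change of the list was 0.70, and 0.22 at 5 FPKM in at least 1 library. KRT19 was at 0.518 (bounds 0 to 1.43) FPKM untreated and at 13.5 (bounds 4.62 to 22.4) FPKM after DAC. KRT81 went from 0.33 (bounds 0 to 0.918) to 10.2 (bounds 3.5 to 16.9) FPKM, and KRT7, from 6.58 (bounds 1.4 to 11.8) to 33.8 (bounds 17.6 to 50.03) FPKM, was 5.14 times higher. The abundant pair KRT8 and KRT18 was not called, with 72.4 and 79.3 FPKM for KRT8. Among 27 epithelial identity and junction genes 12 were more than 2-fold higher and 2 lower, with a median of 0.58 that became 0.074 at 5 FPKM. Of these 12, 10 started under 1 FPKM. JUP, the plakoglobin of desmosomes, was at 0.945 (bounds 0 to 2.21) FPKM and then at 7.47 (bounds 2.62 to 12.3) FPKM, while CDH1, the E-cadherin of adherens junctions, reached only 0.179 FPKM. Aquaporin AQP3 was at 0.605 FPKM untreated and 13.7 FPKM after DAC. TPM2, a tropomyosin of contractile cells, was 12.1 times higher, at 7.38 (bounds 0.725 to 14) FPKM untreated and 89 (bounds 42 to 136) FPKM after DAC. ACTA2, the smooth muscle actin, was at 0.373 and 7.95 FPKM, and CNN1, the smooth muscle calponin, at 0.187 and 3.74 FPKM, both with bounds that overlap. The list of 29 contractile genes was mixed, with 5 more than 2-fold higher, 3 lower (among them TPM3 at 109.6 and 43.7 FPKM) and a median of -0.28. These shares were 17.2% higher and 10.3% lower, against 11% and 5.15% of all genes. Of 17 EMT factors and mesenchymal markers, 9 were more than 2-fold higher and 2 lower. Among the 13 at 1 FPKM or more untreated, 5 were higher and 2 lower. The list median was 0.68, and -0.13 at 5 FPKM in at least 1 library. SNAI1, a repressor of epithelial genes, was at 2.97 and 10.5 FPKM, and S100A4, a calcium-binding protein of motile cells, at 0.914 and 8.28 FPKM. VIM, one of the 2 lower genes, had bounds that overlap widely, at 3066 FPKM (bounds 0 to 10419) and 1134 FPKM (120.3 to 2147).

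Matrix genes were split between the directions. Of 39 collagens, laminins and matrix proteins, 7 had bounds apart with the higher and 2 with the lower level, and the median was -0.05, a sign that turned to 0.088 when the DAC values were divided by the median ratio. COL1A1, the main chain of fibrillar collagen, was at 0.853 (bounds 0 to 1.83) FPKM untreated and at 15.6 (bounds 8.58 to 22.7) FPKM after DAC. FN1, the fibronectin of the matrix, was 2.96 times higher with bounds that overlap, at 29.1 (bounds 12.7 to 45.5) and 86.1 (bounds 25.9 to 146) FPKM. SPARC, a matrix-binding glycoprotein, went from 2.09 (bounds 0.236 to 3.93) to 11.3 (bounds 5.53 to 17.1) FPKM. In the other direction, COL18A1, a basement membrane collagen, went from 11 (bounds 5.71 to 16.3) to 2.64 (bounds 0.76 to 4.53) FPKM, and HSPG2, the proteoglycan perlecan, from 8.26 (bounds 4.51 to 12) to 2.66 (bounds 1.31 to 4.01) FPKM. The 2 lower genes thus belong to the basement membrane. COL7A1, the anchoring fibril collagen that attaches to it, was higher, at 0.351 and 4.85 FPKM.

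AP-1 subunits were found in both directions. AP-1 is a dimer of a JUN and a FOS family protein that binds the motif TGANTCA. JUN was at 91.9 (bounds 48.2 to 136) FPKM in untreated cells and at 28.6 (bounds 15.7 to 41.5) FPKM after DAC, 3.22 times lower, and FOSL1, the FOS family member that marks this kind of tumour line, was 2.95 times lower, at 279.6 (bounds 138 to 421) and 94.8 (bounds 52.1 to 138) FPKM. JUNB, in contrast, was 3.95 times higher, at 8.95 (bounds 2.75 to 15.2) and 35.3 (bounds 18.7 to 52) FPKM. FOS was 5.32 times higher, at 2.64 (bounds 0 to 5.29) and 14.1 (bounds 6.25 to 21.9) FPKM. FOSL1 stayed the more abundant of these FOS family genes after DAC. JUND was 2.5 times higher at 24.1 and 60.1 FPKM, and FOSB was at 0.334 and 2.49 FPKM, both with bounds that overlap. EGR1, an immediate early zinc finger factor, was 6.35 times higher, at 17.9 (bounds 9.32 to 26.4) and 113 (bounds 58.4 to 168) FPKM. In the whole list of 32 AP-1 and immediate early genes 12 were more than 2-fold higher and 5 lower. These shares were 37.5% and 15.6%, against 11% and 5.15% of all genes. Among the 27 at 1 FPKM or more untreated, 7 were higher and 5 lower.

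MMP1, the interstitial collagenase and a known AP-1 target, reached the highest FPKM of the higher genes with bounds apart. It was at 16.2 (bounds 7.48 to 24.8) FPKM in untreated cells and at 279 (bounds 127 to 429.9) FPKM after DAC, 17.2 times higher. Its neighbour in function MMP3 was at 0.318 and 16.4 FPKM, with an interval after DAC that reached down to 0. SERPINB2, the inhibitor of urokinase, went from 0.606 (bounds 0 to 1.76) to 9.72 (bounds 3.29 to 16.1) FPKM. TFPI2, a protease inhibitor of the matrix, was 6.08 times higher, at 9.22 (bounds 3.64 to 14.8) and 56 (bounds 30.4 to 81.6) FPKM. Of 18 metalloproteinases and genes of the plasminogen system, 9 were more than 2-fold higher and 3 lower. Of the 9, 5 started under 1 FPKM and were kept through their DAC level. Among the 13 at 1 FPKM or more untreated, 4 were higher and 3 lower. Promoters were searched for the AP-1 motif and for TATAAA, the TATA box, on both strands of 300 bases, from 250 before to 50 after the 5′ end. TATAAA was in 5.14% of the 11853 promoters with an annotated start and in 16 of the 130 of genes higher with bounds apart (12.3%). TGANTCA was in 4.05% of all and in 8 of these 130 (6.15%). Each motif was in 1 of the 47 promoters of lower genes (2.13%). By the 2-fold rule the directions lay closer, with TATAAA in 8.34% of 1295 higher and 8% of 600 lower promoters. TGANTCA was in 7.03% and 5% of these. Among genes spanning 10 kb or less, 8.85% had TATAAA, and a part of gene length in these shares was not tested. A match describes letters and not a bound site.

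Among 22 NF-kB pathway genes and targets 9 were more than 2-fold higher and none was lower. For the 19 at 1 FPKM or more untreated, 6 were higher. The median log2 change of the list was 0.60, and -0.054 when 5 FPKM was required in at least 1 library. The subunit gene RELB was at 1.3 (bounds 0 to 3.03) FPKM untreated and at 11.4 (bounds 4.87 to 18) FPKM after DAC, and NFKB2, which encodes its partner, went from 4.68 (bounds 1.16 to 8.19) to 20.8 (bounds 9.49 to 32.2) FPKM. These belong to the noncanonical arm of the pathway. ICAM1, an adhesion molecule for leukocytes, was at 0.447 (bounds 0 to 1.32) and then at 11.6 (bounds 5.64 to 17.6) FPKM. IL11, a cytokine of the IL-6 family, was 3.09 times higher, at 12.6 (bounds 5.6 to 19.5) and 38.8 (bounds 20.9 to 56.6) FPKM. IL18 of the same interleukin list was at 9.62 and 0.727 FPKM, with sums over its transcripts of 9.63 and 6.39 FPKM. There 8 of 14 passed 2-fold upward and 2 downward, with a median of 0.83 that became 0.18 at 5 FPKM. Of these 8, 5 started under 1 FPKM and were kept through their DAC level. Of 36 interferon-stimulated genes, 15 were more than 2-fold higher (41.7%) and none was lower, the median was 0.55, and none had bounds apart. For the 30 at 1 FPKM or more untreated, 10 were higher. UBE2L6, which loads ISG15 onto proteins, was at 2.13 (bounds 0 to 4.97) and 10.6 (bounds 2.68 to 18.6) FPKM, and IRF7, a factor of the interferon response, at 1.19 (bounds 0 to 3.38) and 6.92 (bounds 0.949 to 12.9) FPKM. For HLA class I and antigen processing 2 of 14 genes were more than 2-fold higher (14.3%, against 11% of all genes), with a median of 0.29. IFI30, a thiol reductase of lysosomal antigen processing that is in neither list, was 5.48 times higher, at 13.1 (bounds 3.25 to 23) and 72.1 (bounds 38.2 to 106) FPKM.

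Cell cycle genes moved by small amounts and mostly downward. Of 76 mitotic genes, none was more than 2-fold higher, 7 were lower, none had bounds apart, and 88.2% had a log2 change below 0, with a median of -0.54. Among all genes of 20 to 100 FPKM, the class that holds their median level of 50.5 FPKM, 75.1% were below 0 and the median was -0.23. After division by the median ratio 3 mitotic genes were more than 2-fold lower and their median was -0.40. PLK1, the kinase of mitotic entry, was 2.61 times lower, at 155 (bounds 80.3 to 229) and 59.2 (bounds 32.4 to 85.9) FPKM. DNA replication genes shared little of this, with 0 of 62 past 2-fold in either direction and a median of -0.11 that turned to 0.020 after division by the median ratio. CDKN1A, the p21 inhibitor of cyclin-dependent kinases, was 3.27 times higher, at 10.9 (bounds 4.27 to 17.6) and 35.8 (bounds 19 to 52.5) FPKM. FAS, a death receptor and like CDKN1A a p53 target, went from a sum of 2.35 to 7.7 FPKM over its transcripts. Of 34 p53 targets, these included, 5 were more than 2-fold higher (14.7%, against 11% of all genes) and none was lower, with a median of 0.16. The study lists p53 as mutated in MDA-MB-231, and a part of p53 in the levels of these targets was not tested. RB1, the retinoblastoma protein that restrains entry into S phase, was 2.76 times lower, at 38.2 (bounds 20.8 to 55.6) and 13.8 (bounds 7.08 to 20.6) FPKM. H1F0, the linker histone of resting cells, was 3.61 times lower, at 132 (bounds 69.5 to 195) and 36.7 (bounds 20.01 to 53.4) FPKM. Enzymes and readers of DNA methylation, the proteins on the pathway the drug acts on, gave 2 of 19 higher and 2 of 19 lower. That is 10.5% in each direction, against 11% higher and 5.15% lower of all genes. Their median was -0.04, and it turned to 0.092 after division by the median ratio. DCTD, the deaminase that acts on deoxycytidine nucleotides and so on metabolites of this drug, was 3.66 times lower in its main transcript, at 67.1 (bounds 36.7 to 97.4) and 18.3 (bounds 6.74 to 29.9) FPKM, with sums over its transcripts of 67.1 and 34.1 FPKM.

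Signalling genes included antagonists that moved in opposite directions. Among secreted antagonists of the TGF-beta superfamily 3 had bounds apart. FST, which binds activin, was 10.5 times higher, at 3.52 (bounds 0.0819 to 6.97) and 37.2 (bounds 19 to 55.3) FPKM, and GREM1, which binds BMP ligands, reached 4.44 (bounds 1.61 to 7.28) FPKM from a summed level of 0.0126. NOG, another BMP antagonist, was 4.57 times lower, at 25.8 (bounds 13.1 to 38.4) and 5.64 (bounds 1.17 to 10.1) FPKM. Of the whole list of 34 genes 12 were more than 2-fold higher and 5 lower, with a median of 0.09 that became -0.30 when 5 FPKM was required. These shares were 35.3% and 14.7%, against 11% and 5.15% of all genes. Among the 26 at 1 FPKM or more untreated, 5 were higher and 5 lower. Of 17 Notch receptors, ligands and targets, 10 were more than 2-fold higher and none lower, with a median of 0.95. For the 11 at 1 FPKM or more untreated, 5 were higher. Of all 10814 genes at 1 FPKM or more in both libraries, 474 were more than 2-fold higher. HES7, a transcriptional repressor downstream of Notch, was 4.84 times higher, at 3.43 (bounds 0 to 6.89) and 16.6 (bounds 7.17 to 26) FPKM, and the ligand gene JAG1 3.72 times higher, at 1.76 (bounds 0.351 to 3.18) and 6.56 (bounds 3.23 to 9.9) FPKM. Of 39 HOX cluster symbols 17 were kept, 9 of them through the DAC level alone, and 11 were more than 2-fold higher and none lower. Among the 8 at 1 FPKM or more untreated 2 were higher, beside the same 474 of 10814 genes. HOXD13, which patterns the digits, was listed at 0 untreated and at 2.76 (bounds 0.125 to 5.39) FPKM after DAC. SOCS3, the feedback inhibitor of cytokine receptors, was 4.68 times lower, at 40.5 (bounds 22.2 to 58.8) and 8.66 (bounds 3.56 to 13.8) FPKM, and EDN1, the vasoconstrictor endothelin, 3.49 times lower, at 33.5 (bounds 17 to 49.9) and 9.59 (bounds 3.46 to 15.7) FPKM. TGFA, a ligand of the EGF receptor, had bounds apart for the transcript kept, but its summed FPKM was 2.27 and 3.75.

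**Figure D3:**
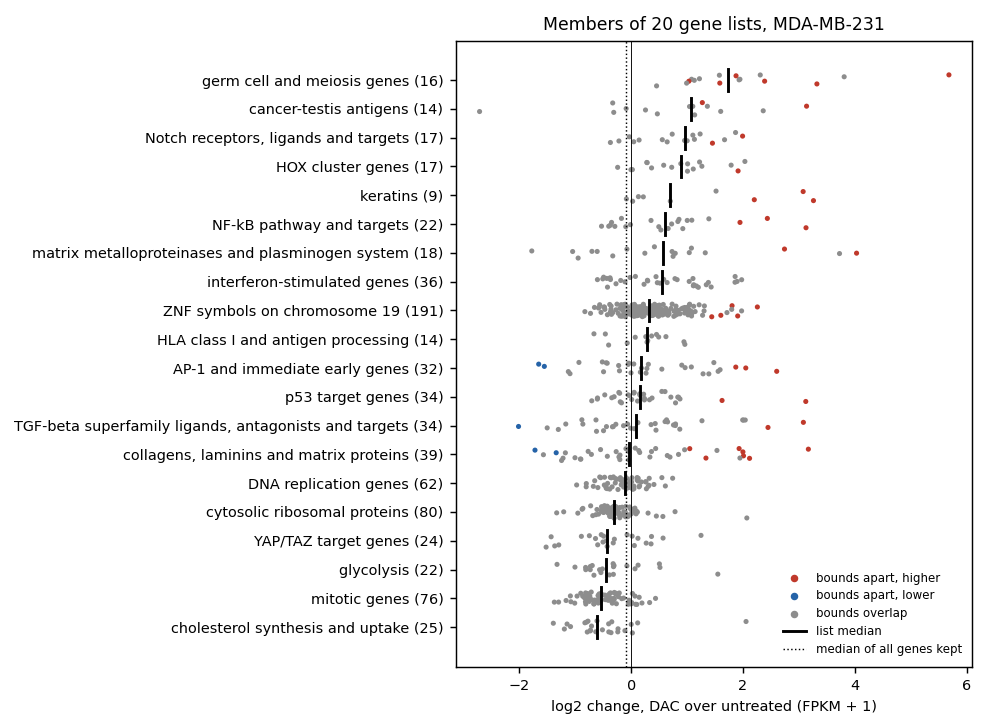
Each dot is 1 gene of a list, placed by its log2 change from the untreated to the DAC library with 1 FPKM added to both values, and each bar the median of its list. Numbers in brackets give the genes measured. Of the 20 lists drawn, germ cell genes have the highest median (1.73) and genes of cholesterol synthesis and uptake the lowest (-0.61), and the dotted line is the median of all genes (-0.09).

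Of 25 genes of cholesterol synthesis and uptake, 4 were more than 2-fold lower and 1 higher, with a median of -0.61. These shares were 16% lower and 4% higher, against 5.15% and 11% of all genes. INSIG1, the sensor that retains the sterol regulator, was 2.91 times lower, at 16.2 (bounds 7.95 to 24.4) and 5.55 (bounds 1.81 to 9.29) FPKM, with bounds that overlap. In fatty acid synthesis SCD, the stearoyl desaturase, was 2.69 times lower, at 89.6 (bounds 43.7 to 136) and 33.3 (bounds 18.2 to 48.4) FPKM. Glycolysis genes had a median of -0.45, cytosolic ribosomal proteins one of -0.30 and oxidative phosphorylation subunits one of -0.07. The ribosomal proteins started at a median of 527 FPKM, and all genes over 100 FPKM had a median of -0.33. After division by the median ratio these medians were -0.48, -0.32, -0.17 and 0.062 for cholesterol, glycolysis, ribosomal proteins and oxidative phosphorylation. Lactate transporters moved apart. SLC16A1, the transporter MCT1, was at 0.152 (bounds 0 to 0.635) FPKM untreated and at 13 (bounds 6.25 to 19.7) FPKM after DAC, whereas SLC16A3, the transporter MCT4, was 2.54 times lower at 111 (bounds 50.9 to 172) and 43.9 (bounds 16.1 to 71.8) FPKM, with bounds that overlap. FBP1, an enzyme of gluconeogenesis, was 4.27 times lower, at 30.5 (bounds 14.6 to 46.4) and 7.15 (bounds 1.42 to 12.9) FPKM. Targets of the coactivators YAP and TAZ had a median of -0.44, with 4 of 24 more than 2-fold lower (16.7%) and 1 higher (4.17%). The higher one was ANKRD1, a muscle ankyrin repeat protein, at 188 (bounds 95.6 to 281) and 449 (bounds 184 to 713) FPKM, while CTGF, the matricellular growth factor, was at 695 and 837 FPKM. Among the lower were IGFBP3 at 173 (bounds 85 to 261) and 63.6 (bounds 34.6 to 92.6) FPKM and AXL, a receptor kinase of mesenchymal tumour cells, at 244 and 84.5 FPKM.

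TM4SF1, H1F0, FOSL1, JUN and DCTD had the highest untreated levels of the 47 lower genes, and the largest decreases included adhesion and signalling genes. TM4SF1, a small tetraspan membrane protein, had the highest starting level of the 47, with 467 (bounds 202 to 731) FPKM untreated and 134.8 (bounds 73.6 to 196) FPKM after DAC, 3.46 times lower. PRKCA, the classical protein kinase C alpha, was 5.21 times lower, at 46.3 (bounds 23.2 to 69.3) and 8.89 (bounds 4.83 to 12.9) FPKM. CDH4, the cadherin of retina and brain, was 20.3 times lower, at 24.7 (bounds 12.3 to 37.1) and 1.21 (bounds 0.114 to 2.32) FPKM, and its sum over transcripts went from 30.5 to 1.25 FPKM. Among the 35 lower genes whose sum was also past 2-fold, this was the largest decrease. DOCK1, an activator of the RAC switch in cell movement, was 5.53 times lower, at 18.7 (bounds 10.2 to 27.2) and 3.39 (bounds 1.35 to 5.42) FPKM. CCDC80, a matrix-associated protein, was 3.99 times lower, at 66.3 and 16.6 FPKM. CELSR1, an adhesion receptor of planar cell polarity, was 4.74 times lower, at 10.7 and 2.26 FPKM, and VANGL1 of the same polarity pathway 2.88 times lower, at 15 and 5.2 FPKM. HDAC4, a class II histone deacetylase, was at 3.53 (bounds 1.62 to 5.44) and 0.63 (bounds 0.01 to 1.25) FPKM. CCDC80, CELSR1, VANGL1 and HDAC4 were taken up after their values were seen. Promoters of PRKCA and TM4SF1 are shown with every CpG in capitals, for PRKCA (chr17:64298481-64298730, plus strand) because it is dense in CpG, and for TM4SF1 (chr3:149095437-149095686, minus strand) because it is not.
PRKCA: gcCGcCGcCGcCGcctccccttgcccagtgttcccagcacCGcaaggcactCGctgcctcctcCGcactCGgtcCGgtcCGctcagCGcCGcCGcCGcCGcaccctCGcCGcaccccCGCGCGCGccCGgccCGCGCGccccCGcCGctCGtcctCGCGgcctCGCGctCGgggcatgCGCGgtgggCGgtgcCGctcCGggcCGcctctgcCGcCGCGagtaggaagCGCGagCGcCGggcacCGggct
TM4SF1: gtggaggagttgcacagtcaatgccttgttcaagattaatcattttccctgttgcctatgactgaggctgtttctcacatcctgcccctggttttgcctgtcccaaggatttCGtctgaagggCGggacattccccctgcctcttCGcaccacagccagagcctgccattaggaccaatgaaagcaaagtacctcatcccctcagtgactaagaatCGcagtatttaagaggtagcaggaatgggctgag
They hold 47 and 4 CpG in 250 bases.

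For some calls the transcript kept changed more than the sum over the gene. Of the 47 lower genes, 12 were less than 2-fold lower when the FPKM of all transcripts of the symbol was summed, and of the 132 higher genes 14 were less than 2-fold higher. The largest decrease of a kept transcript was that of GSPT1, the release factor of translation termination, whose transcript went from 56.8 (bounds 28.2 to 85.3) to 0.00118 (bounds 0 to 0.0965) FPKM, while the sum over its 3 transcripts went from 57 to 35.5 FPKM. ANAPC11, a subunit of the anaphase-promoting complex, likewise went from 49.3 to 0.00435 FPKM with a sum of 109 before and 110.3 FPKM after. GNG10, a G protein subunit whose kept transcript was listed at 0 after DAC, had sums of 22.7 and 15.5 FPKM, and MTHFSD sums of 10.1 and 7.03 FPKM. PSRC1, a spindle protein, had sums of 105 and 68.4 FPKM. Not every such transcript was a switch, since ACSF3, a mitochondrial acyl-CoA synthetase, went in its sum from 6.18 to 1.92 FPKM and the zinc transporter gene SLC39A11 from 5.77 to 1.25 FPKM. On the higher side NRGN, a calmodulin-binding protein of neurons, was at 0.0267 and 46 FPKM for the transcript kept and at 23.5 and 46 FPKM for the sum. Summed levels carry no bounds in the table. Calls with bounds apart whose sum was also past 2-fold numbered 118 higher and 35 lower.

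Lower genes were long. The genomic span, from the start to the end of the annotated main transcript on GRCh37 (the assembly called hg19), was known for 11853 of the 12031 genes, with a median of 26.7 kb. The median was 115 kb for the 47 lower genes with bounds apart and 15.8 kb for the 130 higher genes with a known span. Of the 47, 17 spanned over 200 kb (36.2%, against 5.32% of all genes), and of the 130 higher genes 6 did (4.62%). The share of genes more than 2-fold lower went up with span, from 3.21% of genes of 10 kb or less to 8.51% at 100 to 200 kb, 16.4% at 200 to 400 kb and 38.7% of the 150 genes over 400 kb. The median log2 change went from 0.05 in the shortest class to -0.26, -0.32 and -0.59 in these 3. Genes more than 2-fold higher went from 18.5% in the shortest to 5.33% in the longest class.

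The pattern was also seen among well expressed genes. Among genes at 5 FPKM or more in untreated cells, 41% of the 78 genes over 400 kb were more than 2-fold lower and none was higher, against 3.23% lower and 4.02% higher among the 1891 genes of 10 kb or less. For genes between 5 and 20 FPKM the medians of the shortest and longest classes were 0.02 and -0.74, and for genes above 20 FPKM they were -0.19 and -1.29, the last from 16 genes. Among symbols with 1 transcript in the table the median of the longest class was -0.59, and among genes whose mature transcript was 2000 to 4000 bases long it was -0.67. Across 8086 genes at 5 FPKM or more with a known span, Spearman's rho of the log2 change was -0.22 with span, -0.16 with the length of the mature transcript and -0.21 with the untreated level. Genes are not independent replicates, and all of them come from the same pair of libraries.

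The longest genes included adhesion, kinase and exchange factor genes. DPYD, the enzyme that breaks down uracil and thymine, spans 843 kb and was 3.42 times lower, at 28.2 (bounds 15.1 to 41.3) and 8.23 (bounds 3.79 to 12.7) FPKM. NEGR1, a neuronal adhesion protein of 887 kb, was at 4.12 (bounds 1.7 to 6.53) and 0.639 (bounds 0 to 1.38) FPKM. Besides CDH4 (688 kb), DOCK1 (657 kb) and PRKCA (508 kb), bounds were apart for AGAP1 (638 kb), TBC1D5 (585 kb), SLC39A11 (447 kb) and TBC1D22A (413 kb), all lower. CPED1 of 309 kb was at 8.57 and 1.45 FPKM. Other long genes were lower with overlapping bounds, such as PTPRG, a receptor phosphatase of 736 kb, at 45.1 and 16.4 FPKM, and SMYD3, a lysine methyltransferase of 758 kb, at 25.4 and 8.31 FPKM. Not all long genes were lower. DST, a cytoskeletal linker, was at 63.1 and 54.5 FPKM, and CAMTA1 of 984 kb at 23.6 and 21.4 FPKM. The single gene over 400 kb with bounds apart in the other direction was BBS9, at 1.41 and 1.89 FPKM when its transcripts were summed. Span was examined, and CPED1, DPYD, NEGR1, TBC1D5, TBC1D22A, PTPRG, SMYD3, DST, CAMTA1 and BBS9 were picked, after the values were seen.

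**Figure D4:**
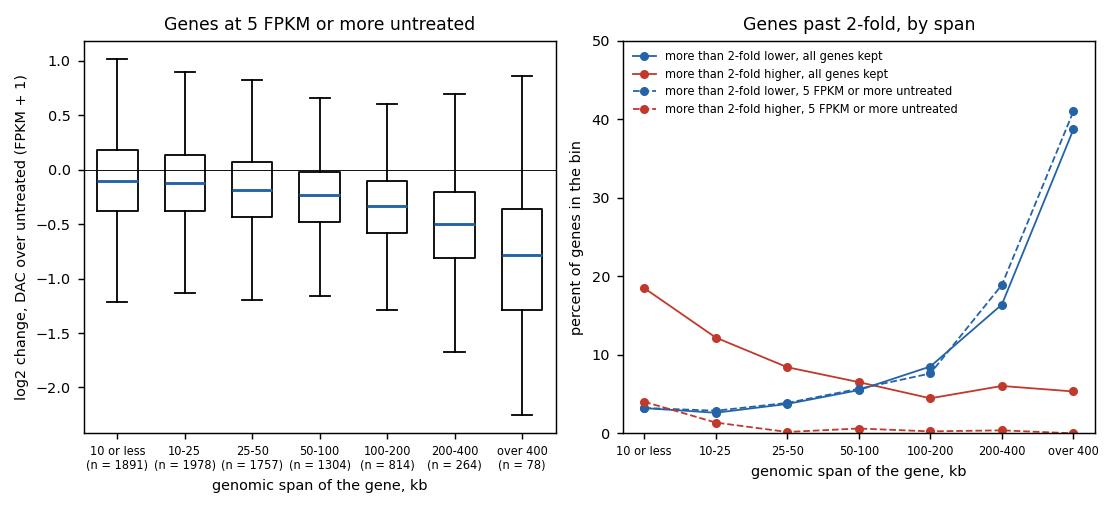
Left, log2 change from the untreated to the DAC library (1 FPKM added) of genes at 5 FPKM or more untreated, in 7 classes of genomic span. Boxes give quartiles and median, and whiskers the last value within 1.5 times the box height. Right, percent of genes in each class that were more than 2-fold lower (blue) or higher (red), among all genes kept (solid) and at 5 FPKM or more untreated (dashed). The median on the left goes from -0.11 to -0.78, and the solid blue line on the right from 3.21% to 38.7%.

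Chromosome 19 stood apart from the rest. Its median log2 change was 0.12, and the medians of the other 22 lay between -0.19 (chromosome 21) and -0.016 (chromosome 17). After division by the median ratio it was 0.23, with 15 of 23 medians above 0, and at 5 FPKM in at least 1 library it was -0.033, with none above 0. The median of chromosome 19 was the highest of the 23 in all 3 cases. On chromosome 19, 185 of 903 genes were more than 2-fold higher (20.5%) and 17 lower (1.88%), and bounds were apart for 16 genes, all higher. At 5 FPKM in at least 1 library 47 of 596 were higher (7.89%) and 13 lower, against 3.99% higher and 4.89% lower on the other chromosomes. Zinc finger genes made up part of this. Of 191 ZNF symbols of that chromosome, DNA-binding repressors that lie there in clusters, 50 were more than 2-fold higher (26.2%) and 1 lower, with a median of 0.32. The filter has a part in this, since 31 of the 50 started under 1 FPKM and were kept through their DAC level. Among the 153 at 1 FPKM or more untreated, 19 were more than 2-fold higher and 1 lower. Of all 10814 genes at 1 FPKM or more in both libraries, 474 were more than 2-fold higher. ZNF560 was listed at 0 untreated and at 2.04 FPKM after DAC, and ZNF542 went from a sum of 0.00731 to 5.83 FPKM. ZNF430 belongs to the transcript changes, with sums of 2.43 and 2.51 FPKM. The 712 other genes of chromosome 19 had 19% more than 2-fold higher and a median of 0.07, whereas 198 ZNF symbols of other chromosomes had 9.6% higher and a median of 0.03. The genes of chromosome 19 were short, with a median span of 14.5 kb, and the part of span in their levels was not tested. Short zinc finger repeats are alike between genes, so reads can be shared among them.

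**Figure D5:**
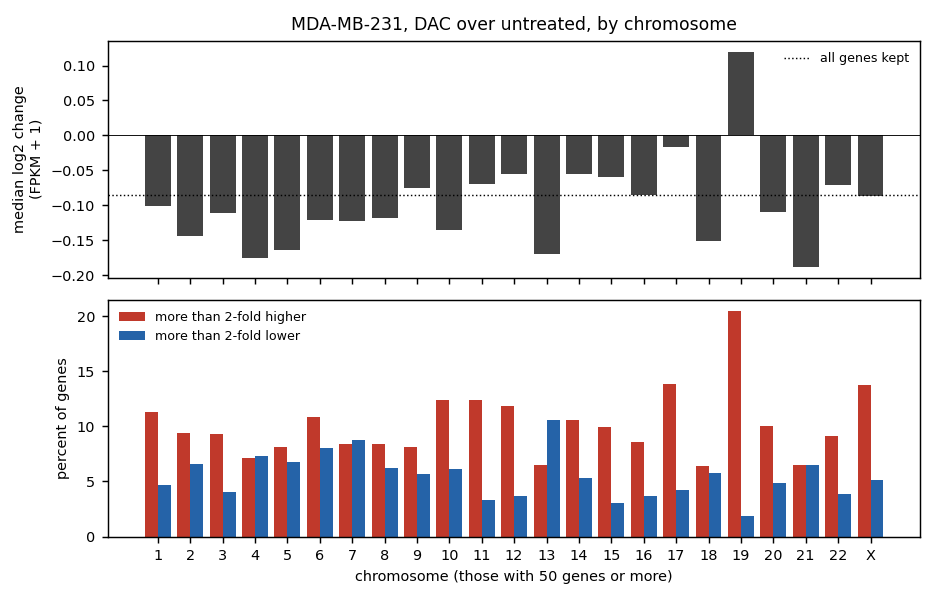
Top, median log2 change (1 FPKM added) of the genes of each chromosome, with a dotted line at the median of all genes (-0.09). Bottom, percent of the genes of each chromosome that were more than 2-fold higher (red) or lower (blue). Chromosome 19 has the highest median (0.12, which was -0.033 when 5 FPKM was required) and the highest share of higher genes (20.5%), and chromosome 13 the highest share of lower genes (10.6%).

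Few genes with bounds apart had a called neighbour, though higher genes had one more often than all genes did. Of 130 higher genes with bounds apart, 8 had another such gene with its 5′ end within 100 kb (6.15%, against 2.84% of all genes with a called gene that near). They formed 4 pairs, KRT7 with KRT81, JUNB with HOOK2, RELB with APOC1 and C1QL4 with DNAJC22. None of the 47 lower genes had a lower neighbour (0.447% of all genes). By the 2-fold rule 32.9% of higher genes had a higher neighbour, against 24% of all genes, and 8% of lower genes a lower one, against 7.24%. Of 733 noncoding RefSeq entries 16.9% were more than 2-fold higher and 6.14% lower, and of 11298 coding entries 10.6% and 5.08%. The median untreated level was 2.56 FPKM for noncoding and 11.6 FPKM for coding entries. With 5 FPKM in at least 1 library, 14 noncoding entries were higher and 21 lower. Among 96 antisense symbols 27 were more than 2-fold higher and 2 lower, with a median of 0.28. Of the 27 higher symbols, 20 started under 1 FPKM and were kept through their DAC level. The use of strand in counting is not given in the sources used here, so reads of an antisense RNA and of its partner cannot be told apart. LOC201651, a noncoding entry, was at 0.432 (bounds 0 to 1.23) FPKM untreated and at 14.8 (bounds 4.98 to 24.7) FPKM after DAC.

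Promoters of the lower genes held more CpG than those of the higher genes, except at the lowest levels. Over the 300 bases around the 5′ end, the median was 35 CpG for the 47 lower genes with bounds apart, 25 for the 130 higher genes and 28 for all 11853 genes. Within genes of 5 to 20 mean FPKM these medians were 36.5, 25 and 28, from 24, 33 and 4240 genes. By the 2-fold rule the medians were 29 for lower and 24 for higher genes. Promoters with fewer than 5 CpG made up 3.09% of all, 8.03% of the genes more than 2-fold higher and 6.67% of those more than 2-fold lower. Single promoters ranged widely, with 33 CpG per 300 bases in DAZL and 10 in GTSF1 among the higher genes, and 52 in PRKCA and 4 in TM4SF1 among the lower. Methylation was not measured in these libraries.

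The second cell line of the study allowed a look at the same treatment elsewhere. The HMLER table, from 2 libraries per condition, has 1 merged value per condition, and all 1854 of its symbols were higher after DAC, so it cannot show genes that were lower there. It lists 11.2% of the 12031 genes, 43.2% of the 132 genes higher with bounds apart (57 genes, 3.07% of the table) and 8.51% of the 47 lower genes (4 genes, 0.216% of the table). MMP1 was at 7.1 and 147 FPKM in HMLER, KRT19 at 0.19 and 32.5 FPKM, and TFPI2 at 3.34 and 35.4 FPKM. UCHL1, a deubiquitinating enzyme of neurons, was at 0.408 and 24.2 FPKM in MDA-MB-231. In HMLER it was listed at 84.2 FPKM untreated and 211 FPKM after DAC. DAZL, GTSF1, COL1A1, TPM2 and SLC16A1 are not among the symbols of that table. The tables were made separately, so levels are not compared between the lines.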

How the data were processed

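RNA was sequenced from MDA-MB-231 and HMLER cells, untreated or exposed to 10 µM DAC for 72 h. Per the study's methods, reads were aligned to hg19 with TopHat2, and FPKM values with lower and upper bounds were made by the authors with Cuffdiff. Versions are not given in the sources used here. The deposited FPKM tables also hold the authors' own fold changes, p-values and q-values, which were not used.

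Each of 23617 symbols was represented by its transcript of highest FPKM over both libraries, if 200 bases or longer and at 1 FPKM or more in at least 1 library. Of these, 365 symbols were left out for length and 12031 remained. Calls asked for bounds apart or a ratio above 2 or under 0.5. Log2 changes used a pseudocount of 1 FPKM. Alternatives varied the filter, the pseudocount, the transcripts and the scaling. In data simulated from the 8147 genes at 5 FPKM or more untreated, both rules called all 100 raised and all 100 lowered genes and no others. The planted changes were far past 2-fold, and the bounds were a fixed fraction of each value with little noise. That outcome followed from these settings, so it checks the code and does not measure how accurate the calls on the real bounds are. Spans and promoters were read from GRCh37 and the GENCODE annotation lifted to it, for 11853 genes matched by symbol or RefSeq accession and overlap with the listed locus. Some promoter sequences are not reported here. Python 3.11.15, numpy 2.4.6, pandas 2.3.3, pysam 0.24.0 and matplotlib 3.10.9 were used.

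Genes and lists were chosen with earlier results of these data known. Named genes were the 15 largest changes with bounds apart in each direction, up to 6 members with bounds apart of each list (otherwise the 3 largest changes), the 5 highest levels with bounds apart in each direction, and markers. ANKRD1, APOC1, C1QL4, CTGF, FOSB, DNAJC22, FBP1, HENMT1, HOOK2, HSPG2, IFI30, JUND, SNAI1 and TPM3 were added after their values were seen, as were those so described in the text.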

Additional observations from a re-analysis of the deposited data

Results flagged for a closer look

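For 4 genes that were lower in MDA-MB-231 with bounds apart, the HMLER table lists a higher level after DAC. The difference was not tested, and since that table holds only genes higher after DAC (1854 of 1854), the sign in HMLER is fixed by what it lists. The log2 change with 1 FPKM added was -1.99 in MDA-MB-231 and 1.501 in HMLER for AGAP1, a regulator of endosomal ARF proteins. EDN1 gave -1.70 and 1.63. NOG gave -2.01 and 0.69. GSPT1 gave -5.85 and 1.67, and its summed level in MDA-MB-231 was 57 FPKM untreated and 35.5 FPKM after DAC.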

How the results depend on the processing

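No paired analysis was possible because each condition of MDA-MB-231 has 1 library and HMLER values were merged. No replicate could be left out. Counts of 132 higher and 47 lower genes with bounds apart, and of 1324 and 619 past 2-fold, depended on the filter. With 1 FPKM required in both libraries 43 genes were higher and 36 lower with bounds apart, and 474 higher and 485 lower past 2-fold. With 5 FPKM required in at least 1 library these were 75 and 43, and 372 and 410. Fewer genes were tested in these. Without a filter 5271 were past 2-fold higher and 1160 lower. Counting every transcript gave 103 lower with bounds apart, 2115 past 2-fold higher and 1447 lower. Adding 1 FPKM before the ratio left 798 and 379.

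Dividing DAC values by the median ratio gave 151 and 34 with bounds apart, and moved the higher share of these calls from 73.7% to 81.6%. That scaling turned the median log2 change to 0.037 for all genes, 0.088 for collagens and matrix, 0.040 for integrins, 0.020 for DNA replication, 0.054 for histones, 0.092 for DNA methylation enzymes, 0.062 for oxidative phosphorylation and 0.0084 for ATF4 and unfolded protein stress genes. The 5 FPKM filter turned it to -0.054 for NF-kB, -0.0023 for AP-1, -0.26 for EGF ligands and receptors, -0.13 for EMT genes, -0.30 for the TGF-beta list, 0.85 for histones, 0.077 for protocadherins, -0.35 for Wnt, -0.074 for TNF, -0.032 for serpins, -0.74 for netrin receptors and DAP kinases and -0.10 for vascular genes. Fewer genes per list were tested there, and other causes were not tested. The list of netrin receptors and DAP kinases had only 5 of its 17 symbols kept before that filter, with a median of 0.15.

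The request for a 2-fold change of the summed transcripts (118 and 35) and the comparisons by span and of chromosome medians were alternatives chosen after seeing the data. The median of genes over 400 kb lay below 0 in all 6 alternatives, and moved to -0.78 at 5 FPKM untreated. The median of chromosome 17 turned to 0.11 under the scaling and that of chromosome 19 to -0.033 at 5 FPKM. Bounds often reach 0 for genes near 1 FPKM, but they also did so in untreated cells for VIM at 3066 FPKM and AXL at 244 FPKM. What sets the width of the bounds was not tested.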

Other observations

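Stress and growth factor genes held a few further calls. Among 32 heat shock proteins 2 were higher with bounds apart and 1 was more than 2-fold lower, with a median log2 change of -0.27. HSPA2, a testis-enriched member of the HSP70 family, was at 2.24 (bounds 0.0852 to 4.4) FPKM untreated and at 20.9 (bounds 11 to 30.9) FPKM after DAC, 9.35 times higher. HSPA8, the abundant constitutive member, was 2.09 times lower with bounds that overlap, at 1572 and 751 FPKM. Copies of this family are alike, so shared reads make single members uncertain. STC2, the secreted stanniocalcin that restrains release of insulin-like growth factors, was at 0.0502 (bounds 0 to 0.146) and 4.72 (bounds 2.03 to 7.41) FPKM.

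Of 6 SOX factors measured 3 were more than 2-fold higher and none was lower. Of the 3 higher, 2 started under 1 FPKM and were kept through their DAC level. SOX15 was at 3.77 (bounds 0 to 14.5) FPKM untreated and at 31 (bounds 0 to 66.2) FPKM after DAC. Among 16 imprinted genes 6 were more than 2-fold higher and 2 lower, with a median of 0.35. These shares were 37.5% and 12.5%, against 11% and 5.15% of all genes. Of the 6 higher, 4 started under 1 FPKM and were kept through their DAC level. PLAGL1, a zinc finger factor of the imprinted network, had sums over its transcripts of 0.0186 and 5.1 FPKM. Of 9 protocadherins of the clusters, which share exons, 5 were more than 2-fold lower and 1 higher, and none had bounds apart.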
